A study of Delphinapterus leucas with 24 samples.

Results

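The comparison is between blood of beluga whales (Delphinapterus leucas) taken in Bristol Bay, Alaska, in 2014 and blood taken there in 2012, gene by gene. A gene is here a distinct Entrez Gene ID (a number that the NCBI gene database gives to a gene) in the deposited table. The table carries such an ID on 14079 of 45872 assembled features, and the values of features with the same ID were summed, which gave 9855 genes. Of these, 9854 passed a filter of 1 TPM (transcripts per 1000000, a length-corrected share of a library) in at least 8 of the 24 libraries and were tested. The members were 8 libraries of 2012 and 8 of 2014, out of 24 that also cover 2013.

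The 2012 libraries came from 3 females and 5 males sampled from 1 to 12 September. Those of 2014 came from 2 females and 6 males sampled from 25 August to 3 September, and those of 2013 from 4 females and 4 males sampled from 23 to 30 August. No treatment is labelled in any group, and the sources used here give neither the age nor the body condition of the animals, nor whether any was caught in more than 1 year.

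Whole blood holds red cells, platelets and white cells, and its RNA is a mixture of theirs. Mammalian red cells have no nucleus, and the RNA they still hold while young, as reticulocytes, is mostly that of haemoglobin chains. White cells such as neutrophils, monocytes and lymphocytes carry most of the diversity of blood RNA. In such a mixture fewer cells of a type and less RNA per cell cannot be told apart.

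The deposited table does not pair Entrez Gene IDs with symbols or descriptions, and no table of names was used here. The genes are therefore described by their levels and not by function, 2 IDs are printed for each direction, and the labelled tissue was not checked against blood cell markers, which are known by name.

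The libraries were put on 1 scale before the years were compared. Each library was divided by its size factor, the median ratio of its genes to their geometric mean over the libraries, and values are given below as scaled TPM. The size factors of 2012 ran from 0.535 to 1.45 with a median of 1.25, those of 2014 from 0.600 to 1.07 with a median of 0.914. The 2 genes with the highest mean TPM held between 2.70% and 54.1% of 1000000 TPM in 2012 (median 13.3%) and between 21.1% and 54.2% in 2014 (median 31.3%). Sequencing depth is unknown, since TPM does not keep it.

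After scaling, 357 of 9854 genes differed between 2014 and 2012, which is 3.62% of those tested (limma, sex in the model, Benjamini-Hochberg adjusted p under 0.05). Of these, 194 (1.97% of the tested genes) were higher in 2014 and 163 (1.65%) were lower. Most differences were small. The genes called higher differed by 0.23 to 2.24 on the log2(scaled TPM + 1) scale with a median of 0.42, a 1.34-fold difference. Those called lower differed by -0.21 to -0.92 with a median of -0.43, and 134 of the 194 and 114 of the 163 lay within 0.5 of zero. The median over all tested genes was -0.0045, and 2205 genes had an unadjusted p under 0.05.

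**Figure D1:**
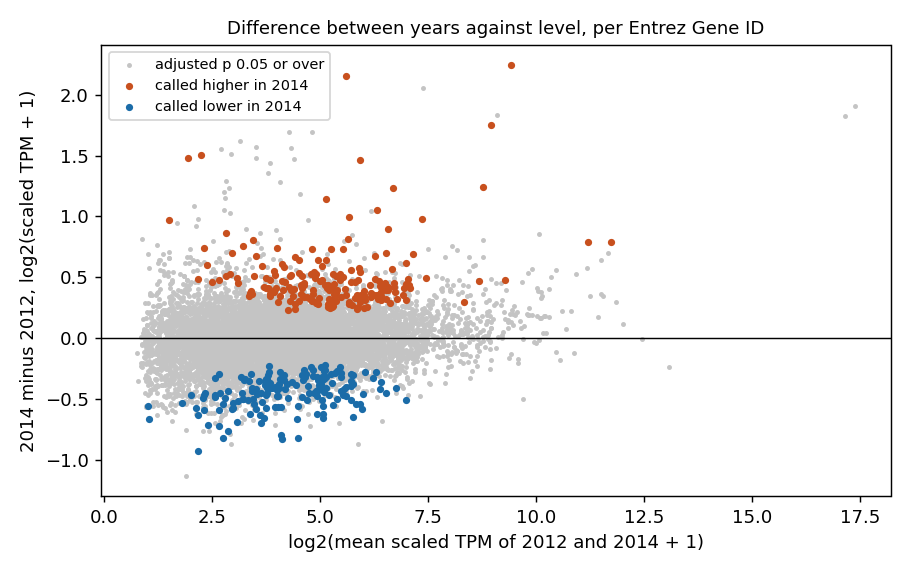
Difference between 2014 and 2012 (log2 of scaled TPM + 1, vertical) against the level of each gene (log2 of the mean scaled TPM of both years + 1, horizontal). Each point is 1 of 9854 genes, and the 194 called higher and the 163 called lower in 2014 are coloured. Differences of 1 or more lie almost all above the zero line.

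The split between higher and lower depended on which features set the scale. With size factors taken from all 45872 features, with or without an ID, the median gene moved by 0.12 upwards, and 515 genes (5.23% of those tested) were higher and 52 (0.528%) lower. Without scaling the median was -0.38, and 25 genes were higher and 1087 lower. In that fit 276 of the 357 genes called after scaling kept their sign. The median of the genes called higher after scaling was then 0.030, and that of the genes called lower -0.80. The direction of a gene is therefore given relative to the median gene with an ID, and a difference near that shift turns with the choice of scale.

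Entrez Gene ID 8724 had 1 assembled feature, TR33660|c0_g1, and was higher in 2014. Replicates 1 to 8 of 2012 had 88.6, 82.0, 91.8, 79.9, 100.7, 94.2, 81.0 and 91.7 scaled TPM. Replicates 1 to 8 of 2014 had 113.7, 114.2, 114.5, 132.9, 122.9, 130.6, 116.2 and 105.3 scaled TPM. Every library of 2014 lay above every library of 2012, and the lowest of 2014 was the one sampled last that year. The difference was 0.43 ± 0.066 (SE) on the log2 scale, from 88.7 ± 7.33 to 118.8 ± 9.34 scaled TPM (SD, n = 8 each; limma adjusted p = 0.0037). The 2013 libraries lay at 99.6 ± 7.30 scaled TPM (SD, n = 8), from 87.9 to 109.8, and overlapped both other years. Unscaled, its difference was 0.020 (adjusted p = 0.937; 0.00312 to 0.937 over the 16 alternatives other than leaving out 1 library), so the call belongs to the scaled values.

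Entrez Gene ID 9111, on the single feature TR23907|c0_g3, was also higher in 2014. In 2012 it had 42.0, 40.3, 47.4, 43.4, 45.8, 61.2, 48.1 and 41.1 scaled TPM in replicates 1 to 8. In 2014 it had 66.3, 62.5, 63.4, 64.2, 78.6, 64.3, 59.8 and 53.8 scaled TPM. The groups overlapped through 2012 replicate 6, which lay above 2014 replicates 7 and 8, while the other 7 libraries of 2012 lay below all of 2014. The difference was 0.46 ± 0.082 (SE), from 46.2 ± 6.73 to 64.1 ± 6.99 scaled TPM (SD, n = 8 each; limma adjusted p = 0.0135). It too was small without scaling, at 0.056 (adjusted p = 0.821; 0.00756 to 0.821 over the 16 alternatives).

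Entrez Gene ID 9398, on the single feature TR38132|c0_g1, was lower in 2014. Its 2012 libraries had 22.8, 27.4, 29.4, 33.8, 26.9, 28.1, 28.1 and 24.5 scaled TPM in replicates 1 to 8. Its 2014 libraries had 14.6, 15.2, 11.4, 14.03, 14.2, 17.8, 13.8 and 20.7 scaled TPM. The groups did not overlap, and they came nearest between 2012 replicate 1, sampled on 1 September, and 2014 replicate 8, sampled on 3 September. The other library of 1 September, 2012 replicate 2, was at 27.4 scaled TPM, near the mean of 2012. The difference was -0.81 ± 0.127 (SE), from 27.7 ± 3.28 to 15.2 ± 2.84 scaled TPM (SD, n = 8 each; limma adjusted p = 0.0037). The fitted difference is a ratio of 0.569 in scaled TPM + 1, adjusted for sex. In 2013 the level was 25.3 ± 6.60 scaled TPM (SD, n = 8), and its range of 16.8 to 37.1 was wider than that of either other year.

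Entrez Gene ID 861 was summed from 4 features and was lower in 2014. Replicates 1 to 8 of 2012 had 34.03, 34.9, 33.5, 42.0, 29.7, 41.9, 32.3 and 41.8 scaled TPM. Replicates 1 to 8 of 2014 had 20.7, 21.01, 25.6, 23.9, 20.6, 26.2, 23.1 and 23.4 scaled TPM. All libraries of 2014 lay below all of 2012, and those of 2014 varied less, with an SD of 2.17 against 4.90 scaled TPM. The difference was -0.62 ± 0.097 (SE), from 36.3 to 23.1 scaled TPM (n = 8 each; limma adjusted p = 0.0037). Its features TR13757|c0_g1, TR37440|c0_g2, TR6172|c0_g1 and TR6172|c0_g2 differed by -0.44, -0.45, -0.25 and -0.57 when fitted singly on the scale set by all features. None of the 4 passed the threshold alone (adjusted p from 0.06 to 0.287 over all features). In 2013 the sum was 35.2 ± 6.09 scaled TPM (SD, n = 8), near that of 2012.

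**Figure D2:**
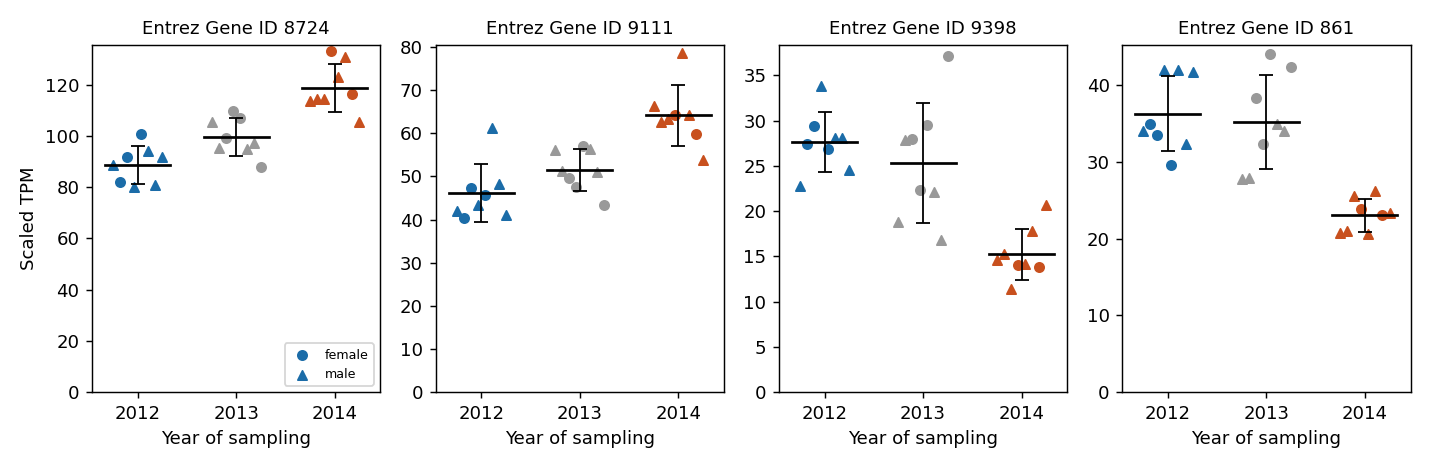
Scaled TPM of Entrez Gene IDs 8724, 9111, 9398 and 861 in every library by year of sampling, with circles for females and triangles for males. Horizontal lines are means and error bars are SD (n = 8 per year). For 3 of the 4 genes no library of 2014 lies within the range of 2012, and for 9111 the library at 61.2 scaled TPM in 2012 is the exception.

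Both sexes showed these differences. In the males ID 8724 was at 87.1 scaled TPM in 2012 and 116.9 in 2014, and in the females at 91.5 and 124.6. ID 9398 was at 27.5 and 15.7 scaled TPM in the males, and at 27.9 and 13.9 in the females. ID 9111 was at 47.2 and 64.8 scaled TPM in the males and at 44.5 and 62.0 in the females. ID 861 was at 38.4 and 22.9 scaled TPM in the males and at 32.7 and 23.5 in the females. Over the 194 genes called higher the median difference was 0.46 in females and 0.42 in males, and over the 163 called lower it was -0.43 in both. These medians come from the libraries that chose the genes. In the 15 males alone, with 5 of 2012 and 6 of 2014, 1 of 9808 genes was called (0.0102%), namely ID 861 at -0.72 ± 0.10 (SE; limma adjusted p = 0.0224, against 0.00234 to 0.579 over all 16 alternatives), with 1504 genes at an unadjusted p under 0.05. IDs 8724, 9111 and 9398 did not pass in the males alone (limma adjusted p = 0.107, 0.112 and 0.107). Whether any gene differed between the sexes in its change was not tested.

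Genes whose 16 libraries separated completely were few. In 25 genes (0.254% of those tested) all 8 libraries of 2014 lay above all 8 of 2012, and 22 of these were called. In 24 genes (0.244%) all 8 lay below, and 20 of these were called.

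The share of genes called differed with their level, when the genes were put into 4 classes of equal size by mean level. In the lowest class, up to 7.25 scaled TPM, 1.66% were called, 13 higher and 28 lower. In the highest class, above 35.0 scaled TPM, 5.36% were called, 98 higher and 34 lower. The classes between had 3.45% and 4.02% called. The median SE was 0.149 in the lowest class, 0.113 and 0.0987 in the classes between and 0.101 in the highest. A difference of a given size was thus easier to call in the highest class than in the lowest. The third class had a median SE no larger than the highest, with a smaller share called. Why the share called differed between the classes was not tested. Of the 710 genes above 100 scaled TPM on average, 23 were called higher and 2 lower, a share of 3.52% that is near the 3.62% of all tested genes and below that of the highest class. The median level of the genes called higher was 32.2 scaled TPM in 2012 and 41.6 in 2014, and that of the genes called lower was 19.2 and 13.9, beside 16.8 in 2012 over all genes tested.

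Large differences were almost all in 1 direction. A fitted difference of 1 or more on the log2 scale was found for 35 genes towards 2014 and for 1 gene towards 2012. The 2 most abundant genes were among the 35, at 1.90 ± 0.61 and 1.83 ± 0.58 (SE), and did not pass (limma adjusted p = 0.0693 and 0.0699). Of the other 33, with differences from 1.03 to 2.24, 10 were called, and the adjusted p ran from 0.0202 to 0.17. Their median SE was 0.476 against 0.114 over all genes, and in none did the groups separate. Their median level was 10.5 scaled TPM in 2012, 14.4 in 2013 and 23.5 in 2014.

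The level of these 33 genes in a library is set here beside the share of the most abundant genes. The 33 were chosen for a large difference between these same libraries of 2012 and 2014. Low values in 2012, high values in 2014 and a smaller difference in another fit therefore partly follow from that choice. The libraries of 2013 lie outside the contrast. The mean deviation of the 33 genes from the midpoint of 2012 and 2014 was lowest, at -1.82, in 2012 replicate 8, where the 2 most abundant genes held 2.70% of TPM. It was highest, at 1.98, in 2014 replicate 4, where they held 54.2%. The library of 2012 in which they held 54.1%, replicate 1, had a deviation of 1.52, above 7 of the 8 libraries of 2014. Within 2013 it ran from -1.18 in the library with 7.60% to 1.42 in the one with 45.2%. With the log2 share of the 2 genes as a covariate, a fit chosen after seeing the data, the median difference of the 33 genes fell to 0.23 and 7 had a difference below 0. With day of the year as a covariate in its place the median fell to 0.21, and 10 had a difference below 0. In each of these fits 1 of the 33 stayed at 1 or more and 0 were called. Without 2012 replicate 1 all 33 were called (median difference 1.79), and without 2014 replicate 4 none of the 33 was called (median difference 1.22), when 17 of all genes were.

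**Figure D3:**
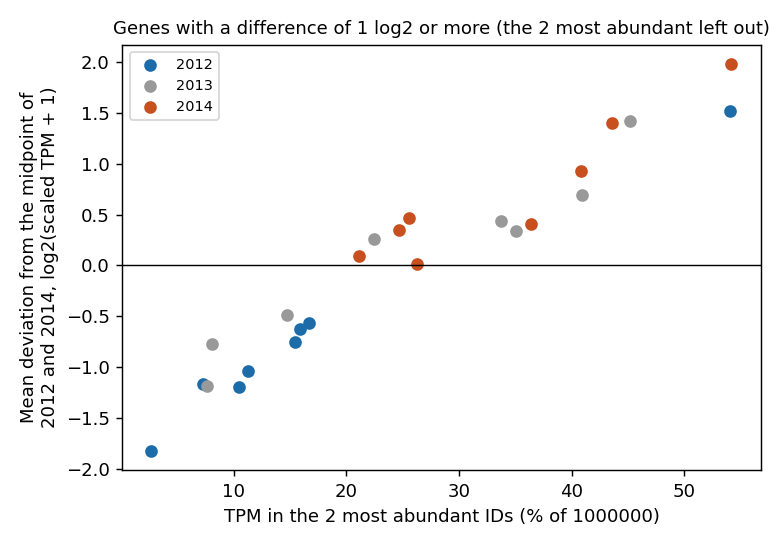
Mean deviation of the 33 genes that differed by 1 log2 or more, the 2 most abundant left out (vertical, log2 of scaled TPM + 1, relative to the midpoint of the 2012 and 2014 means), against the TPM held by the 2 most abundant genes (horizontal, % of 1000000). Each point is 1 library, coloured by year. The 3 years lie along the same band, and 2012 replicate 1, at 54.1% and 1.52, lies among libraries of 2014.

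All 357 called genes kept their sign with that share in the model, but none was called. With the share as a covariate 0 of 9854 genes were called (0% of those tested), while 1188 had an unadjusted p under 0.05 and the lowest adjusted p in limma was 0.0594. The median of the genes called higher moved from 0.42 to 0.35 and that of the genes called lower from -0.43 to -0.38. ID 8724 stood at 0.43 ± 0.081 and ID 9398 at -0.82 ± 0.156 (SE) in that fit, both with a limma adjusted p of 0.0594. Over the alternatives the adjusted p ran from 0.00312 to 0.937 for 8724 and from 0.00107 to 0.546 for 9398. ID 9111 stood at 0.48 ± 0.101 (SE; adjusted p = 0.0917) and ID 861 at -0.50 ± 0.112 (SE; adjusted p = 0.106). Without the share the SEs of 8724, 9398, 9111 and 861 were smaller, at 0.066, 0.127, 0.082 and 0.097.

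Sampling date moved with the year. The days of the year ran from 245 to 256 in 2012 and from 237 to 246 in 2014, so that only 2012 replicates 1 and 2 and 2014 replicate 8 lie in the range the years share. With day of the year as a covariate 0 of 9854 genes were called (0% of those tested) in limma, with 792 at an unadjusted p under 0.05, and 352 of the 357 kept their sign. The median of the genes called higher was then 0.26 and that of the genes called lower -0.22. IDs 8724 and 9111 stayed at 0.41 ± 0.11 and 0.47 ± 0.14 (SE), whereas IDs 9398 and 861 were at -0.56 ± 0.21 and -0.37 ± 0.15 (SE). None of the 4 passed (adjusted p from 0.462 to 0.579). Year and date cannot be told apart for most of these libraries.

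On the overlapping dates the 3 libraries gave mixed values. 2014 replicate 8, the last of its year, lay above the midpoint of the years in 128 of the 194 genes called higher and below it in 49 of the 163 called lower. The other libraries of 2014 had 96 to 190 and 141 to 162 such genes. 2012 replicate 1 lay on the side of 2014 in 57 and 55 genes, and 2012 replicate 2 in 17 and 4. The first of these 2012 libraries is also the one with 54.1% of TPM in the 2 most abundant genes.

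The 2013 libraries, which are not part of the contrast but share its scale, filter, sex term and estimate of spread, were sampled on days 235 to 242, which overlap the days of 2014. Their mean lay nearer to 2012 than to 2014 in 183 of the 194 genes called higher and in 155 of the 163 called lower. It lay between the other years in 187 and 138 genes. Genes chosen for a difference between 2 years tend to have any other year between them, so no test is given. Within 2013 the deviation of the genes called lower ran from -0.09 to 0.36, against -0.38 to 0.04 in 2014 and 0.07 to 0.38 in 2012.

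**Figure D4:**
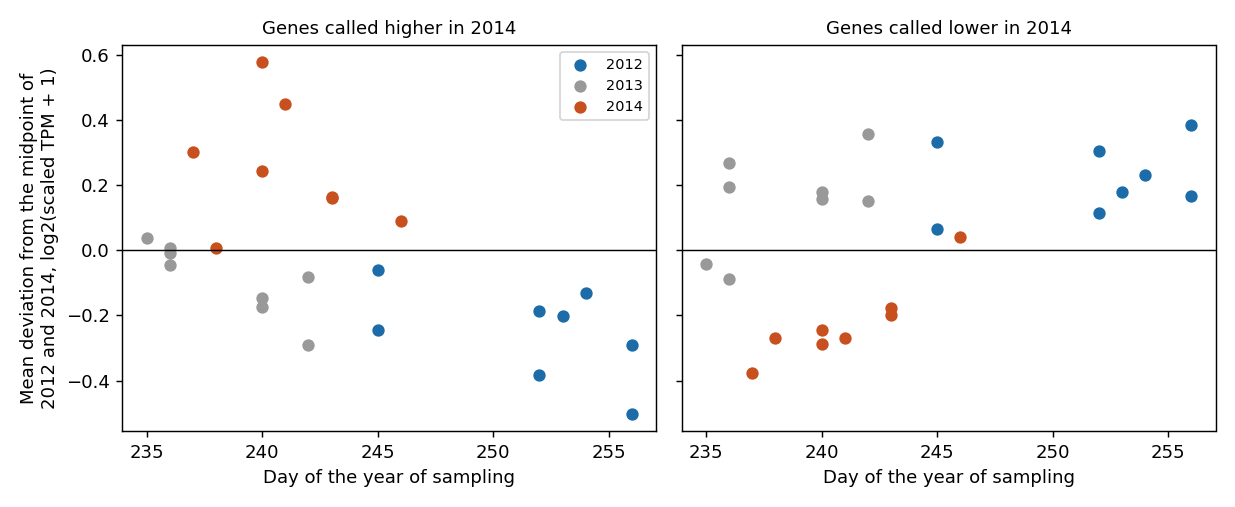
Mean deviation of the 194 genes called higher (left) and the 163 called lower (right) from the midpoint of the 2012 and 2014 means (vertical, log2 of scaled TPM + 1) against the day of the year of sampling (horizontal). Each point is 1 library. The libraries of 2013 were taken on days that overlap those of 2014, and for the genes called lower 6 of the 8 lie on the side of 2012.

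The count of calls rested on single libraries. With each library of 2012 or 2014 left out in turn it ran from 17 (without 2014 replicate 4) to 793 (without 2012 replicate 1), with a median of 183. It was 29 without 2012 replicate 8, 36 without 2012 replicate 4, 68 without 2014 replicate 5, 89 without 2014 replicate 1, 97 without 2014 replicate 3, 113 without 2012 replicate 7 and 124 without 2012 replicate 2. It rose to 625 without 2014 replicate 8. Genes at an unadjusted limma p under 0.05 numbered 1815 without 2014 replicate 4, 2603 without 2012 replicate 1 and 2205 with all libraries. Without 2014 replicate 4 the medians of the genes called higher and lower were 0.38 and -0.41, against 0.42 and -0.43 with all libraries. Those genes were chosen with all the libraries, so a shared direction partly follows. All 357 genes kept their sign in each of these 16 fits, and 15 were called in every one, 5 higher and 10 lower in 2014. IDs 8724, 9111, 9398 and 861 were among the 15. Their largest limma adjusted p in these fits was 0.0164, 0.042, 0.0164 and 0.0164. These IDs were chosen for the smallest p with all libraries, and each fit drops only 1 library, so this is no independent check.

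**Figure D5:**
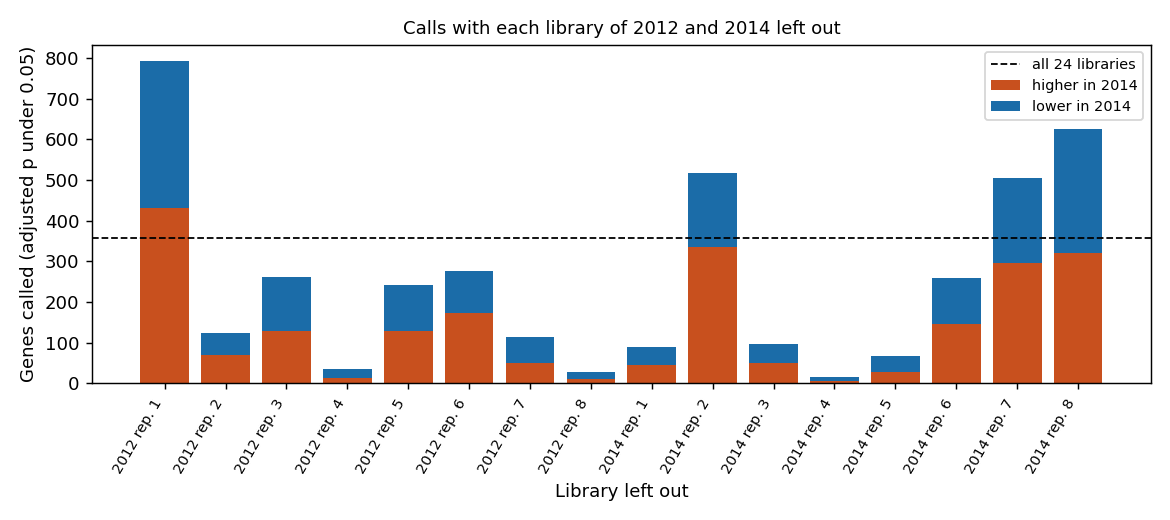
Number of genes called at an adjusted p under 0.05, stacked by direction, with each library of 2012 and 2014 left out in turn. The dashed line is the count of 357 with all 24 libraries, and the bars run from 17 to 793.

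Within the called genes, features that share an ID mostly had the direction of their sum. Of the 357 called genes, 134 were sums of 2 or more features, 368 in all, and 343 of these features (93.2%) had the direction of their sum. Every feature had it in 113 of the 134 genes. The features are parts of the sums that were called, so this describes the called genes and is no independent check. Only 27 of the 368 features were called by themselves. The single features were fitted on the scale set by all features and adjusted over all of them. The sums were fitted on the scale of the genes with an ID, so directions and calls are compared here across 2 scales. Genes with 2 or more features were called in 4.75% of 2821, and those with 1 feature in 3.17% of 7033.

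Features without an Entrez Gene ID were listed at lower levels than those with one. In a fit of single features, on the scale set by all of them, 101 of 14076 features with an ID were called (0.718%), 88 higher and 13 lower in 2014. Of 31756 features without an ID 139 were called (0.438%), 93 higher and 46 lower. The median level was 3.34 with an ID and 1.62 without on the log2(scaled TPM + 1) scale, and the median difference between the years was 0.10 with an ID and -0.07 without. Whether the classes differ beyond their level was not tested.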

How the data were processed

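The authors deposited 1 table of TPM for 24 libraries, and the unit was read from the values, since each column sums to between 987069 and 997966. Trimmomatic, Bowtie2 and RSEM 1.2.21 are named, per the submitters' processing notes, and Trinity in the design text. How IDs were assigned to features is not stated there. TPM was summed per Entrez Gene ID, and 1 feature whose ID cell held a date was counted as having none. Median-ratio scaling used genes above 0 in every library, computed on the sums. limma 3.58.1 in R 4.3.3 (trend and robust options) was fitted to log2(scaled TPM + 1) over all 24 libraries with year and sex, for genes reaching 1 TPM in 8 libraries or more. The fit was also tested on simulated data with independent noise in each gene. That setting lacks variation shared by genes, so it does not bear on how the calls depend on single libraries. Replicates are numbered in order within a year. Each p-value sets the difference between the years against the spread between libraries within a year, with libraries taken as independent. The highest Spearman correlation between libraries was 0.987, and none was treated as a copy. The printed IDs have the smallest p among calls, 2 per direction; the rule for names needed symbols, and this one was set after the values were seen. The comparison and lists were chosen with earlier results of these data known. Gene lists written as symbols were not analysed here.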

Additional observations from a re-analysis of the deposited data

Results flagged for a closer look

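Of 24 groups of 8 libraries examined, 3 had a highest or lowest value that stood apart, and chance alone flags about 1 such group in 20. Both of the first values below come from 1 library. In 2012 replicate 1 the 2 most abundant genes held 54.1% of TPM, where the rest of that year had 2.70% to 16.7%. Its size factor was 0.535, against 1.14 to 1.45. Entrez Gene ID 9111 was at 5.96 on the log2(scaled TPM + 1) scale in 2012 replicate 6, against 5.37 to 5.62 in the other libraries of 2012. No test was made of their part in the calls beyond fits that changed the libraries or the model. These left out or weighted libraries, or had the share of the 2 most abundant genes as a covariate.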

How the results depend on the processing

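With all 24 libraries 194 genes were higher and 163 lower, 357 in all. The deposited scale gave 1112 calls (25 higher, 1087 lower), size factors from all features 567 (515 higher, 52 lower) and library weights 744 (420 higher, 324 lower). Single features gave 59 lower. The most abundant feature per ID gave 236 calls, 106 of them lower, and the libraries of 2012 and 2014 alone gave 124 higher. Males alone gave 1 call, 0 higher and 1 lower, from 15 libraries. Day of the year, and the share of the 2 most abundant genes, each gave 0 calls, 0 higher and 0 lower. Leaving out single libraries gave 17 to 793 calls, 5 to 430 higher and 12 to 363 lower. Without both 2012 replicate 1 and 2014 replicate 4 there were 307 calls, 198 of them among the 357, so 159 were lost. Sampling sites are labelled by coordinates, and longitude as a covariate gave 479 calls (276 higher, 203 lower). Latitude was not used, since some labelled latitudes did not match the other sites. That fit and the other alternatives stayed within 1.5 times. The 4 printed IDs never changed sign. Among the 16 alternatives other than leaving out 1 library, IDs 8724, 9111, 9398 and 861 passed the threshold in 12, 12, 13 and 14. They passed in every fit that left out 1 library, but such fits share nearly all libraries with the main one. Over both kinds of fit 13 of their values missed the threshold and 147 passed it. The fits with the abundance share, all-feature size factors, single features and those 2 libraries left out were chosen after seeing the data. A share defined by globin symbols, and list medians, need gene names and were not run. The causes were not tested. No paired analysis was possible because the labels do not tie animals across years.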
